A study of Sus scrofa with 12 samples.

Results

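Imprinted genes are transcribed mainly from one parental copy, because DNA methylation laid down in the egg or the sperm marks the parental copies differently. Paternally expressed members often promote growth and maternally expressed members often restrain it, and in cultured pluripotent cells these marks are known to be lost or gained. The list examined here held 10 imprinted genes, of which 7 (IGF2R, PEG10, MEST, DLK1, GRB10, PLAGL1 and NNAT) were found by the gene symbol deposited beside each of the 24358 genes. An eighth, PEG3, carried no deposited symbol and was paired through its gene identifier (ENSSSCG00000003326) in a reference table of gene names, so it stands outside the symbol rule and is included with that proviso. IGF2 and SNRPN were paired with no row and were not analysed here. The values are RNA levels from both copies of each gene together, and no allele-specific or methylation measurement was used, so they do not measure the state of an imprint.

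The cells were pig induced pluripotent stem (iPS) cells made from pericytes, the contractile cells that wrap small vessels, and called PC-iPS cells. RNA of 12 libraries was sequenced, 3 in each of 4 groups. WT was the unmodified PC-iPS culture, and KI was the NANOG knock-in reporter, in which a tag and tdTomato were inserted at NANOG, a core pluripotency transcription factor. Both were labelled as grown in LCDMV medium, which holds LIF, CHIR99021, dimethindene, minocycline and vitamin C. The other two groups were reporter cells given Activin A, a ligand of the TGF-β family, or SB431542, an inhibitor of the receptors that Activin A uses; the study describes these treatments in the same medium without LIF. All groups shared the pericyte origin and the removal of feeder cells by a short plating step before RNA extraction. The reporter lines were sorted, transfected populations that may mix edited and unedited cells, so differences between lines are not differences between single clones. No source states that the libraries of WT came from separate cultures, and p-values measure only the spread between these libraries. The KI and WT libraries were deposited in one table and the Activin A and SB431542 libraries in another, and tests were made within a table.

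Levels are given in FPKM, fragments per kilobase of transcript in a library scaled to a fixed total, which corrects for gene length. Counts per library were not used here. Relative depth was estimated as the most common ratio of FPKM between the first KI library and each library. This used genes above 0 and under 0.3 FPKM in both. It was 0.574 to 0.637 in WT and 0.732 to 1 in KI, with the first KI library set at 1, so low genes were measured less precisely in WT. NANOG, the targeted gene, was at 52.0, 101 and 70.4 FPKM in KI, 9.71, 16.4 and 27.6 in WT, 109, 195 and 157 under Activin A and 11.8, 27.2 and 11.8 under SB431542. SOX2, another pluripotency factor, was at 39.1 FPKM or more in every library, whereas ZFP42, a naive pluripotency marker, was listed at 0 in all 12. Summed levels of 10 fibroblast or feeder markers ran from 38.1 to 51.8 FPKM in WT, 81.4 to 108 in KI, 95 to 132 under Activin A and 67.0 to 72.8 under SB431542. Summed levels of 10 pericyte markers ran from 30.0 to 33.2 FPKM in WT, 54.3 to 57.7 in KI, 46.3 to 53.7 under Activin A and 62.9 to 65.2 under SB431542. Summed levels of 10 trophoblast markers ran from 12.9 to 19.5 FPKM in WT and from 77.5 to 513 in KI, with the highest value in line 2. These marker sums moved with the groups, and their part in the results that follow was not tested. In bulk RNA, fewer cells of one type and less RNA per cell cannot be told apart.

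On the log2(FPKM + 1) scale, MEST differed most between the reporter and the unmodified cells, and NNAT differed most between Activin A and SB431542. PEG3 was the member called between the numbered libraries of the treated cells. PEG10 was the most abundant member in every library, at 131 to 227 FPKM, and DLK1 the least, at 0.113 to 1.06 FPKM. All 8 members with a row passed the filter on low values, which asked for at least 0.1 FPKM in 3 of the 6 libraries compared. A gene was called when its difference in log2(FPKM + 1) was at least 1 and its limma adjusted p (Benjamini-Hochberg over all genes tested) was at most 0.05.

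**Figure D1:**
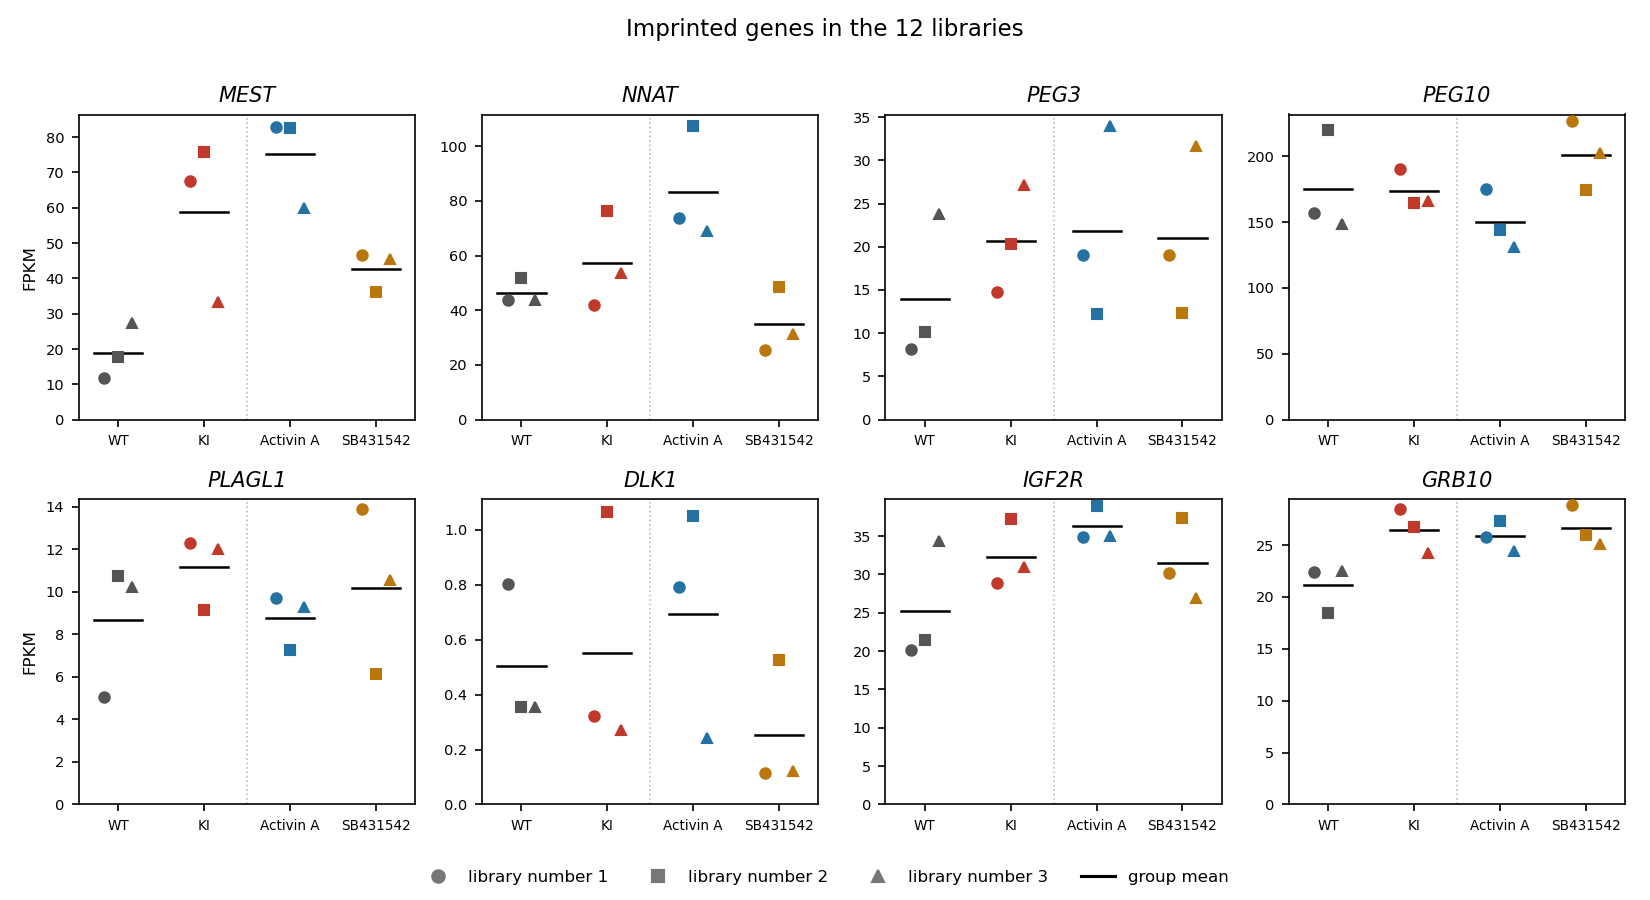
FPKM of the 8 imprinted genes (vertical axis, linear, from 0, with its own scale in each panel) in the 4 groups (horizontal axis), with one point per library, its shape giving the library number, and a bar at the group mean. The dotted line separates the 2 deposited tables. MEST in KI lies above MEST in WT in every library, and NNAT under Activin A lies above NNAT under SB431542 in every library.

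The first comparison asked how the reporter cells differed from the unmodified PC-iPS cells. MEST, a paternally expressed gene of the hydrolase fold family that is abundant in embryonic mesoderm, lies at chr18:18319126-18358655 in the RefSeq annotation of Sscrofa11.1. Its levels were 67.5, 75.8 and 33.2 FPKM in KI lines 1 to 3 and 11.7, 17.6 and 27.4 FPKM in the WT libraries. The groups did not overlap, although the lowest KI library, line 3, was close to the highest WT library. The difference was 1.58 on the log2(FPKM + 1) scale (SE 0.372, 95% interval 0.713 to 2.45), a 2.99-fold higher level in KI, with a limma adjusted p of 0.0477. This call rests close to the threshold. It was kept without KI replicate 3 (1.94, limma adjusted p = 0.0305) and without WT replicate 3 (1.88, limma adjusted p = 0.0336), and was lost when any of the other 4 libraries was left out, with limma adjusted p of 0.104 to 0.148. The fibroblast, pericyte and trophoblast marker sums were also higher in KI than in WT. The mean was higher in KI for 6 of 8 fibroblast, 8 of 9 pericyte and 6 of 6 trophoblast markers tested. COL1A1 and PDGFRA of the fibroblast list were lower in KI (-0.39 and -0.16), and COL1A1 did not overlap between the groups. Within KI lines 1 to 3, the fibroblast sum was 82.1, 81.4 and 108 FPKM, the pericyte sum 54.3, 54.5 and 57.7 FPKM and the trophoblast sum 125, 513 and 77.5 FPKM.

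MEST was the only one of the 8 members called in this comparison, against 2.31% of all 14014 genes tested. The mean log2(FPKM + 1) of all 8 was higher in KI, with a median difference of 0.346 against -0.00137 over all genes, but the mean FPKM of PEG10 was lower in KI (173 against 175), the difference of PEG10 was 0.01 and that of DLK1 0.02, and both changed sign under another setting. The groups did not overlap for MEST and GRB10, which is 2 of 8, while they did not overlap for 35.7% of all genes.

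Among the other paternally expressed members, PEG3, which encodes a zinc finger protein linked to growth and maternal behaviour (chr6:61281931-61307788), was at 14.7, 20.3 and 27.1 FPKM in KI and 8.13, 10.1 and 23.8 FPKM in WT. The third WT library lay inside the KI range. The difference was 0.64 (SE 0.380, limma adjusted p = 0.304), and without WT replicate 3 it was 1.07 with a limma adjusted p of 0.049, which passed both thresholds. Over the 6 fits with 1 library left out it ran from 0.35 to 1.07, with a limma adjusted p of up to 0.607. PEG10, a retrotransposon-derived gene needed for the placenta (chr9:74474121-74486983), was at 190, 164 and 166 FPKM in KI and 157, 220 and 148 FPKM in WT. Its groups overlapped fully, with a 95% interval of -0.363 to 0.375 on the log2(FPKM + 1) scale.

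NNAT, neuronatin, a small membrane proteolipid of developing brain (chr17:40625990-40629523, inside the span of BLCAP), was at 41.8, 76.5 and 53.5 FPKM in KI and 43.8, 51.8 and 43.8 FPKM in WT, a difference of 0.26 (limma adjusted p = 0.443). PLAGL1, a zinc finger transcription factor that restrains proliferation (chr1:21299830-21371070), was at 12.3, 9.16 and 12 FPKM in KI and 5.06, 10.8 and 10.2 FPKM in WT, a difference of 0.38 (limma adjusted p = 0.379). Neither gene separated the groups. With 1 library left out the difference ran from 0.03 to 0.46 for NNAT and from 0.07 to 0.55 for PLAGL1, uncalled in every fit. DLK1, a transmembrane relative of the Notch ligands that holds back adipocyte differentiation (chr7:121565844-121577493), stayed near or under 1 FPKM, at 0.321, 1.06 and 0.271 in KI and 0.803, 0.356 and 0.354 in WT. The difference in DLK1 was 0.02, with a 95% interval of -0.470 to 0.514.

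The maternally expressed members act against growth signals. IGF2R, the receptor that takes up IGF2 for breakdown (chr1:7369485-7472480), was at 28.8, 37.2 and 30.9 FPKM in KI and 20.1, 21.4 and 34.3 FPKM in WT. The third WT library overlapped with KI, and the difference was 0.38 (SE 0.207, limma adjusted p = 0.27). GRB10, an adaptor that dampens insulin and IGF1 receptor signalling and is imprinted in a tissue-dependent way (chr9:136580363-136742552), was at 28.4, 26.8 and 24.3 FPKM in KI and 22.4, 18.5 and 22.5 FPKM in WT. Every KI library was above every WT library, by 0.32 between the means (SE 0.120), with a limma adjusted p of 0.139.

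The second comparison asked what Activin A and SB431542 did to the reporter cells, with no untreated library in that table. NNAT was at 73.8, 108 and 69.0 FPKM under Activin A and 25.4, 48.6 and 31.3 FPKM under SB431542. Every Activin A library was above every SB431542 library, and within library numbers 1, 2 and 3 the ratio of Activin A to SB431542 was 2.91, 2.21 and 2.20. The difference was 1.25 on the log2(FPKM + 1) scale (SE 0.263), 2.38-fold, with a limma adjusted p of 0.159. With the library number as a block, which pairs the libraries of the same line, the SE was 0.0931 and the limma adjusted p 0.0164, and NNAT was called. KI, in another table and medium, lay between these treatments on average, at 41.8 to 76.5 FPKM.

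No member was called by limma without the block, against 0.0929% of 13999 genes tested, and 3 of 8 (MEST, NNAT and PEG10) had an unadjusted p of at most 0.05, against 12.8%. The count of all genes called was 13 without the block. With the block NNAT was the only one of 8 members called, and 99 genes or 0.707% of all genes were called. LIN28A, KRT8, TFAP2C, GATA2 and COL3A1, named below, were also called only with the block.

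MEST was at 82.9, 82.7 and 59.9 FPKM under Activin A and 46.7, 36.2 and 45.4 FPKM under SB431542. The groups did not overlap, and the difference of 0.79 (SE 0.158) was under the fold threshold, with a limma adjusted p of 0.143 and of 0.0687 with the block. MEST and NNAT were thus 2 of 8 members whose groups did not overlap, against 20% of all genes. The fibroblast marker sum was also higher under Activin A than under SB431542 in every library, although 4 of the 8 markers tested had a higher mean and 4 a lower one. The pericyte marker sum was lower under Activin A in every library, with a higher mean for 3 of the 9 markers tested. The neural marker sum was higher under Activin A within each number (267.5, 245.3 and 363.3 against 202.9, 242.5 and 285 FPKM), with a higher mean for 3 of the 6 markers tested. The trophoblast marker sum was lower within each number, although 4 of the 6 markers tested had a higher mean. COL3A1 of the fibroblast list differed by 3.08 (limma adjusted p = 0.201, and 0.0121 with the block).

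PEG10 had the opposite sign, at 175, 144 and 131 FPKM under Activin A and 227, 174 and 202 FPKM under SB431542. The first Activin A library was just above the second SB431542 library, and the difference was -0.42 (SE 0.137, limma adjusted p = 0.292, and 0.064 with the block). Within each number the Activin A library was the lower, at 0.771, 0.826 and 0.649 times its SB431542 partner.

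IGF2R was at 34.9, 38.9 and 35.0 FPKM under Activin A and 30.2, 37.4 and 26.9 FPKM under SB431542, a difference of 0.21 (limma adjusted p = 0.537). DLK1 was at 0.790, 1.05 and 0.243 FPKM under Activin A and 0.113, 0.527 and 0.123 FPKM under SB431542, higher under Activin A within each number but with overlapping groups (0.42, limma adjusted p = 0.463). Both genes remained uncalled with the block.

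PEG3, GRB10 and PLAGL1 showed small differences between the treatments. PEG3 was at 19.1, 12.2 and 34.0 FPKM under Activin A and 19.1, 12.3 and 31.7 FPKM under SB431542, so that the treated libraries of one number were within 1.07-fold of each other. GRB10 was at 25.8, 27.3 and 24.4 FPKM against 28.9, 26.0 and 25.1 FPKM, with a 95% interval of -0.242 to 0.160. PLAGL1 was at 9.71, 7.26 and 9.29 FPKM against 13.9, 6.13 and 10.5 FPKM, with a wider interval of -0.787 to 0.499.

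**Figure D2:**
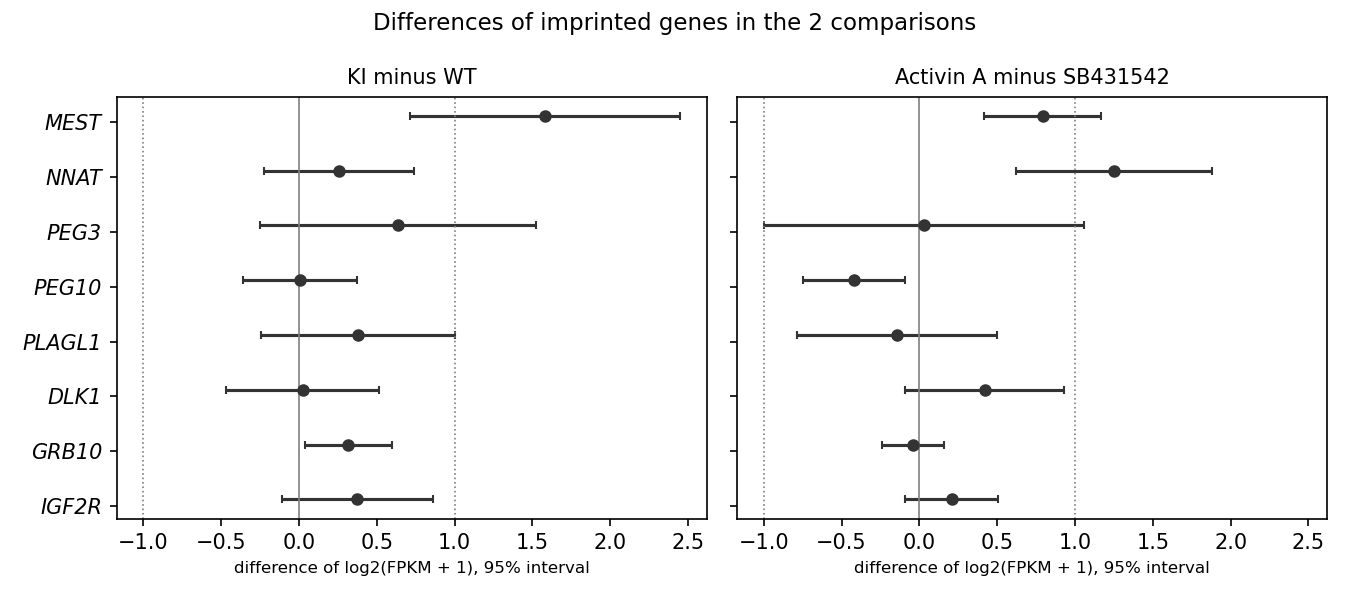
Difference in log2(FPKM + 1) of each imprinted gene (horizontal axis) for KI minus WT (left) and Activin A minus SB431542 (right), with 95% intervals from limma without the block. Dotted lines mark a difference of 1 in either direction. MEST in the left panel (1.58) and NNAT in the right panel (1.25) lie past that line.

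The third comparison asked whether the numbered reporter lines differed. Over 13696 genes, deviations from the group mean correlated at 0.404 to 0.590 between Activin A and SB431542 libraries of the same number, and at 0.510 to 0.670 between KI and Activin A libraries of the same number. Between KI and WT libraries of the same number the correlations were -0.0169 to 0.0961. The numbers of KI, Activin A and SB431542 were therefore read as the same line, from the data and not from a label.

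PEG3 was the one member called by number. Its mean log2(FPKM + 1) over both treatments was 4.33 for number 1, 3.73 for number 2 and 5.08 for number 3, a range of 1.35, with a limma adjusted p of 0.0202 in a moderated F test with treatment as a covariate. It was the only one of 8 members called, against 1.06% of all genes, while 5 of 8 (PEG3, NNAT, PLAGL1, DLK1 and PEG10) had an unadjusted p of at most 0.05, against 24.6%. The call was lost when any 1 of the 6 treated libraries was left out, with limma adjusted p of 0.0547 to 0.104, while the range kept within 1.3 to 1.4. In KI, which the test did not use, number 3 was again the highest at 27.1 FPKM, but number 1 (14.7 FPKM) and not number 2 (20.3 FPKM) was the lowest. WT number 3, which is no reporter line, was also the highest of its group at 23.8 FPKM, and the same test in KI and WT gave a range of 1.14 with a limma adjusted p of 0.873, where 0.0143% of all genes were called. The summed fibroblast or feeder markers were highest in number 3 of each group, at 108 FPKM in KI, 132 under Activin A, 72.8 under SB431542 and 51.8 in WT. In the treated groups that order came from COL3A1, a fibrillar collagen, at 6.57, 7.47 and 42.9 FPKM under Activin A and 0.0156, 0.215 and 2.73 FPKM under SB431542. It was itself called by number (range 2.21, limma adjusted p = 0.0363). Without COL3A1 the sums were 91.5, 87.6 and 89 FPKM under Activin A and 71.4, 66.8 and 70.1 FPKM under SB431542, highest in number 1, and number 3 was still the highest in KI (84.4 FPKM) and WT (50.2 FPKM). The summed neural markers (7 genes) were also highest in number 3 of the reporter groups, at 330 FPKM in KI, 363 under Activin A and 285 under SB431542, but not in WT, where number 2 was highest at 281 FPKM. TUBB3 and NCAM1 followed this order in each reporter group, and SOX1, NES and MAP2 only in some. NEUROD1 followed it in each, but near the floor, at 0.0147 to 0.190 FPKM, and did not pass the filter in the treated libraries. PAX6 was highest in number 2 of each reporter group. It was the only 1 of 6 neural markers tested that was called by number (range 1.29, limma adjusted p = 0.0394), against 1.06% of all genes. The part of these markers in the PEG3 result was not tested.

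NNAT was highest in number 2 in all 4 groups. Its number means were 5.47, 6.20 and 5.57 on the log2(FPKM + 1) scale in the treated libraries, a range of 0.72 with a limma adjusted p of 0.0752. The trophoblast marker sum was highest in number 2 of KI, Activin A and SB431542, at 513, 472 and 946 FPKM, and lowest in number 2 of WT. Most of it was KRT8, a keratin of simple epithelia, at 428, 334 and 835 FPKM in these libraries. GATA2, GATA3, TFAP2A, TFAP2C and KRT18 were also highest in number 2 of each of these groups. The trophoblast markers CDX2, ELF5, HAND1 and KRT7 were at 0.0280 FPKM or less in every library. By number, 6 of 6 trophoblast markers tested had an unadjusted limma p of at most 0.05, against 24.6% of all genes. Of these, 3 were called, against 1.06%. The part of these markers in the NNAT levels was not tested.

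The other members varied less between numbers or less evenly. PLAGL1 was highest in number 1 and lowest in number 2 in each of KI, Activin A and SB431542, over a range of 0.72 in the treated libraries (limma adjusted p = 0.152). DLK1 was highest in number 2 in the same 3 groups (range 0.58, limma adjusted p = 0.162), IGF2R was also highest in number 2 (0.30, limma adjusted p = 0.208), and PEG10 was highest in number 1 (0.33, limma adjusted p = 0.175). MEST and GRB10 did not keep one highest number. One number was thus highest in all 3 reporter groups for 6 of 8 members, against 38% of all genes, and in all 4 groups for PEG3 and NNAT, against 13.4%. The median range of the members over the treated libraries was 0.457, against 0.219 over all genes.

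**Figure D3:**
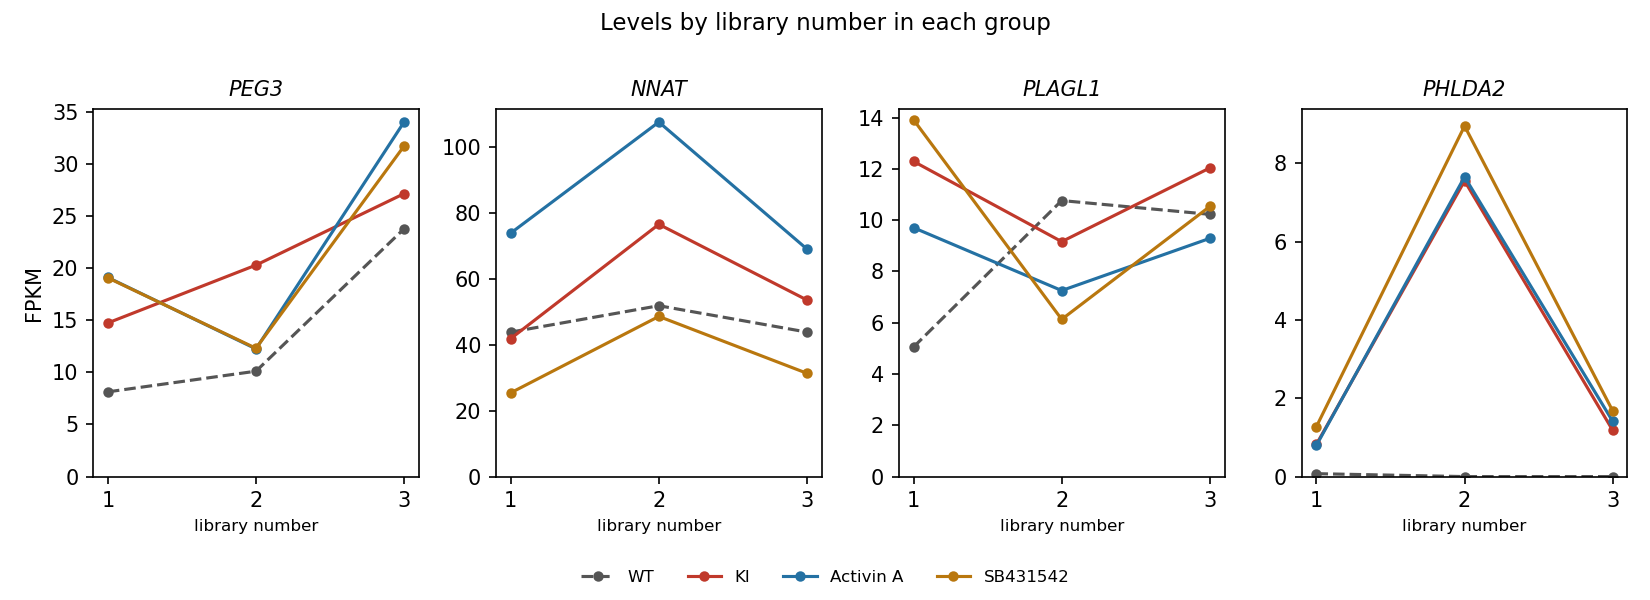
FPKM (vertical axis, from 0) against library number (horizontal axis) for PEG3, NNAT, PLAGL1 and PHLDA2, with one line per group and WT dashed. Lines join libraries of one group and give no order. PEG3 is highest in number 3 and NNAT in number 2 of every group, while PHLDA2 is highest in number 2 of the 3 reporter groups and at 0.0741 FPKM or less in WT.

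The wider imprinted gene list held 58 further genes, of which 43 had a row and 30 passed the filter in KI and WT. None was called by limma in KI against WT, where 2.31% of all genes were, and 2 had an adjusted p under the threshold with a smaller difference, against 7.22% of all genes. An unadjusted p of at most 0.05 was found for 14 of 30, against 28.6% of all genes. A total of 15 had a higher mean in KI, and the median difference was -0.00735. For 15 of 30 the groups did not overlap, 8 with KI higher and 7 with KI lower, against 19% and 16.7% of all genes. This count and that by unadjusted p include NDN and PHLDA2. These genes passed the filter only through the group where they were high, WT for NDN and KI for PHLDA2. Between Activin A and SB431542, none of 28 was called by limma, against 0.0929% of all genes, 4 had an unadjusted p of at most 0.05, against 12.8%, and the groups did not overlap for 6, against 20%. By number, PHLDA2 was the only one of 28 called, against 1.06% of all genes, and 11 had an unadjusted p of at most 0.05, against 24.6%.

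PHLDA2, a maternally expressed gene that limits placental growth, was at 0.827, 7.55 and 1.18 FPKM in KI, 0.800, 7.65 and 1.41 FPKM under Activin A and 1.28, 8.95 and 1.68 FPKM under SB431542. Line 2 was several times the other lines in each of these groups. The range of the number means was 2.20 on the log2(FPKM + 1) scale (limma adjusted p = 0.0202), and leaving out any library but SB431542 replicate 3 lost the call, with limma adjusted p of up to 0.0948. In WT it was at 0.0741 FPKM in 1 library and listed at 0 in the others, so that no fold is given. PHLDA2 passed the filter in KI and WT only through the KI libraries, so no test of that difference is read. KRT8, KRT18 and TFAP2C of the trophoblast marker list were also called by number. Between Activin A and SB431542, KRT8 (-1.22, limma adjusted p = 0.653, and 0.015 with the block) and TFAP2C (1.51, limma adjusted p = 0.389, and 0.0187 with the block) were called only with the block. The same held for GATA2 of that list (2.28, limma adjusted p = 0.155, and 0.034 with the block).

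The genes described next were chosen after their values were seen, from the wider list. TSSC4, a neighbour of the imprinted KCNQ1 region, was higher in KI by 0.79 (SE 0.129, limma adjusted p = 0.0205), from a mean of 9.57 ± 1.35 FPKM in WT to 17.2 ± 0.537 in KI (SD, n = 3 libraries). COPG2, a coat protein subunit gene whose RefSeq span overlaps that of MEST by 12411 bases, was lower in KI by 0.79 (SE 0.185, limma adjusted p = 0.0469), from 52.1 ± 14.7 FPKM in WT to 29.1 ± 1.98 in KI (SD, n = 3 libraries). With single libraries left out, the limma adjusted p ran from 0.0149 to 0.0924 for TSSC4 and from 0.0336 to 0.145 for COPG2. The differences of MEST and COPG2 had opposite signs. Whether the libraries kept strand is not given in the sources used here, and reads from overlapping genes may not be told apart. SGCE, whose span ends 216 bases from that of PEG10, was lower in KI by 0.49 (limma adjusted p = 0.0672), where PEG10 differed by 0.01. CDKN1C, a maternally expressed inhibitor of the cell cycle, was at 44.6, 41.6 and 65.1 FPKM under Activin A and 23.8, 24.5 and 26.4 FPKM under SB431542. Its groups did not overlap, and the difference of 0.96 had a limma adjusted p of 0.122, and of 0.0327 with the block.

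**Figure D4:**
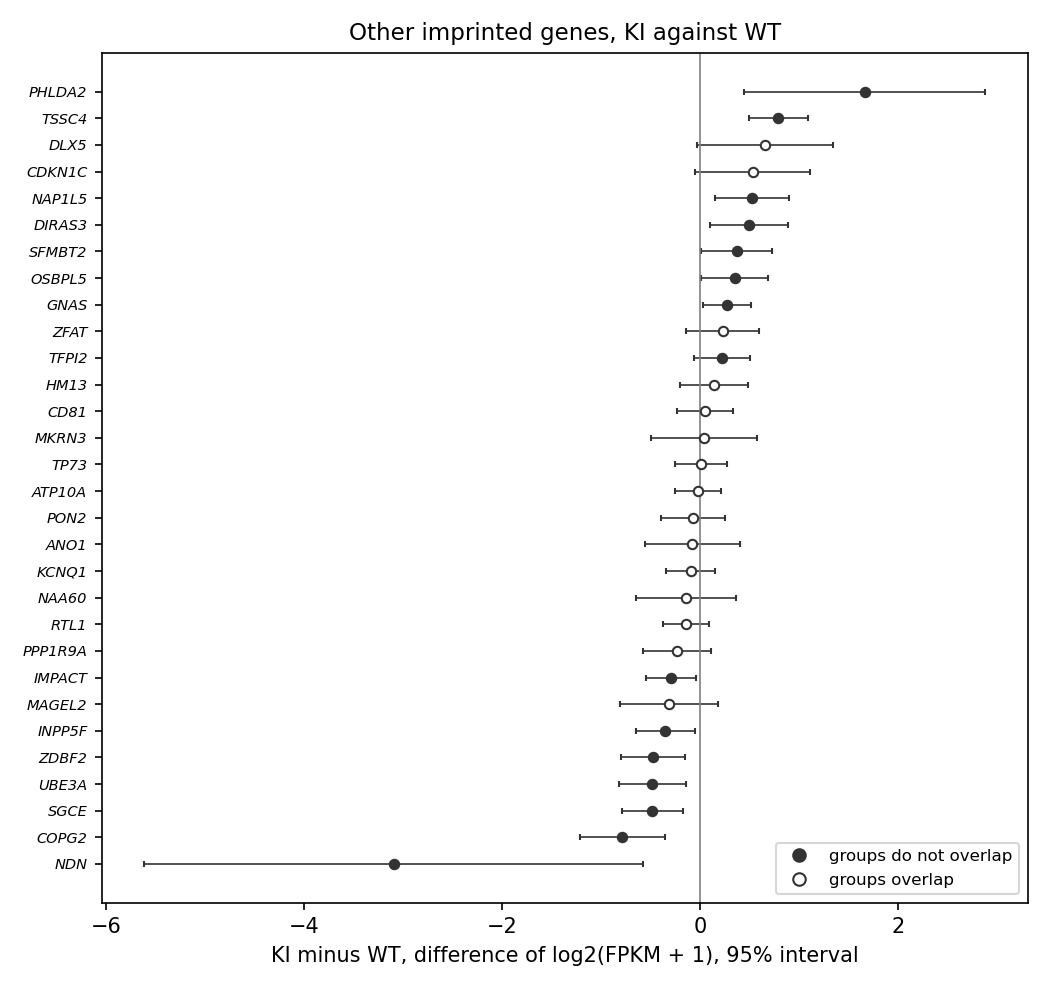
Difference in log2(FPKM + 1) between KI and WT (horizontal axis) for the 30 other imprinted genes tested, each with its 95% interval from limma. Filled points mark genes whose KI and WT libraries did not overlap, which were 15 of 30. The points lie on both sides of 0, from NDN at -3.10 to PHLDA2 at 1.66. Both passed the filter only through the group where they were high (WT for NDN, KI for PHLDA2), so their sizes depend on the pseudocount.

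NDN, a paternally expressed gene of the MAGE family (chr1:142412688-142413665), was listed at 0 in all 9 reporter libraries, treated or not. In WT it was at 21.7, 0.113 and 23.9 FPKM, so that 1 WT library was close to the reporter libraries and the other two were far above. NDN passed the filter only through the WT libraries, so no test of KI against WT is read for it. The difference was -3.10 at a pseudocount of 1 and -5.59 at 0.1, since KI was at 0. NDN was not tested between the treatments, where every library was at 0. An exact 0 in a table without counts may be a failed estimate, which was not tested. Depth was lower in WT, where NDN was above 0, than in KI. MAGEL2, a paternally expressed gene lying 36748 bases away, was at 6.79, 6.57 and 8.71 FPKM in KI and 12.9, 8.28 and 7.53 FPKM in WT. MKRN3, also paternally expressed and in the same region, was at 3.6, 3.91 and 6.54 FPKM in KI and 4.18, 5.49 and 3.67 FPKM in WT. Both were present in every library, and neither separated KI from WT. UBE3A, a ubiquitin ligase that neurons express from the maternal copy, was at 13.2, 13.9 and 13.7 FPKM in KI and 24.0, 17.5 and 17.5 FPKM in WT, lower in KI by 0.48 (limma adjusted p = 0.083).

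**Figure D5:**
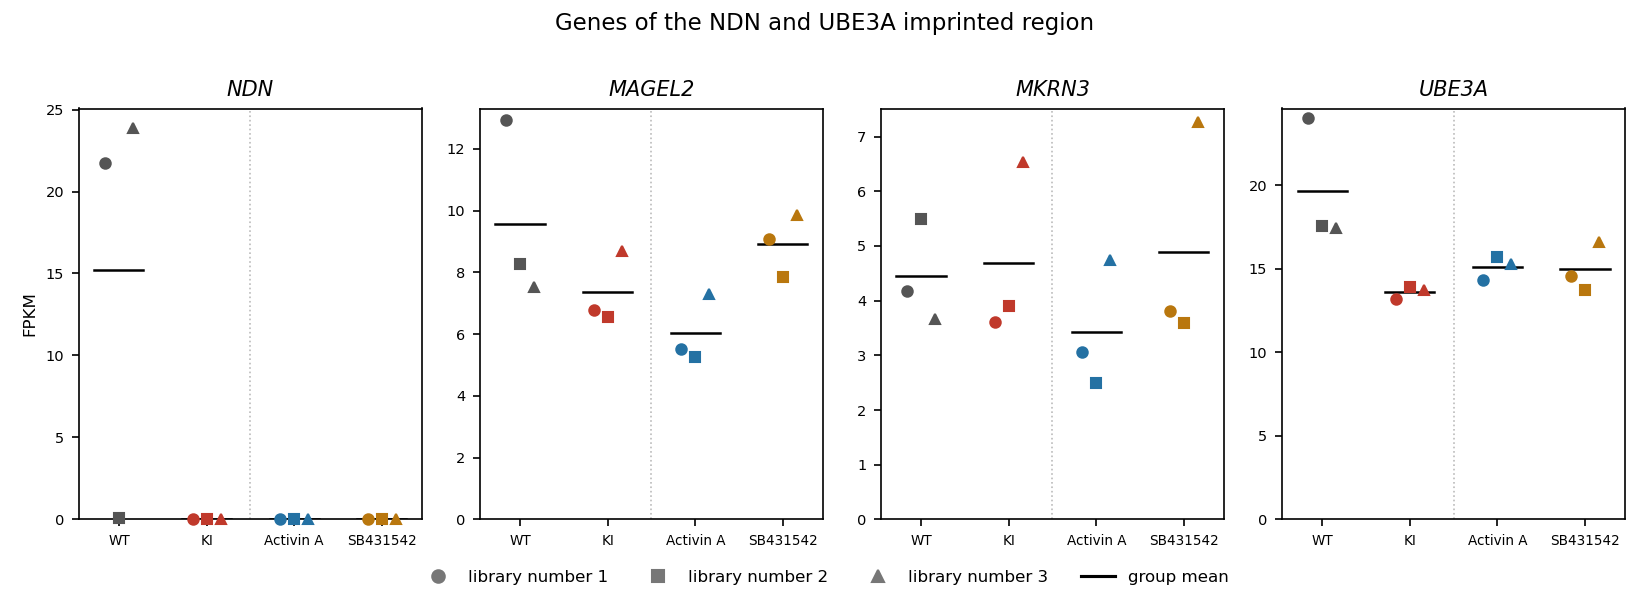
FPKM (vertical axis, from 0, with its own scale in each panel) of NDN, MAGEL2, MKRN3 and UBE3A in the 4 groups, with one point per library and a bar at the group mean. NDN is at 0 in all 9 reporter libraries and above 20 FPKM in 2 of 3 WT libraries, while the other 3 genes are above 2 FPKM in every library.

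IGF2R and GRB10 act on the insulin-like growth factor (IGF) pathway, in which IGF1 and IGF2 signal through IGF1R. Of 26 genes listed for that pathway, 21 were tested in KI and WT, with 2 called higher (1.61% of all genes), 1 called lower (0.706% of all genes) and 17 with a higher mean in KI. LIN28A, an RNA-binding protein of pluripotent cells, was higher in KI by 2.08 (limma adjusted p = 0.0184), and IRS2, an adaptor of the receptors, by 1.16 (limma adjusted p = 0.0327). IGFBP5, a secreted binding protein, was at 0.30, 0.35 and 0.99 FPKM in KI and 5.66, 3.4 and 2.54 FPKM in WT, a difference of -1.63 (limma adjusted p = 0.0208). Leaving out single libraries lost the calls of IRS2 in 5 of 6 fits, of IGFBP5 in 3 and of LIN28A in 2. IGF1R, the signalling receptor, was at 17.5 to 19.7 FPKM in KI and 12.2 to 13.7 FPKM in WT. IGF1 was at 0.0811 FPKM or less in every library. None of 21 was called by limma between Activin A and SB431542 without the block, against 0.0929% of all genes, and 8 had an unadjusted p of at most 0.05, against 12.8%. LIN28A was lower under Activin A by 1.55 (limma adjusted p = 0.273, and 0.015 with the block). By number, it was the only 1 of 21 called (range 1.46, limma adjusted p = 0.0389), against 1.06% of all genes. An unadjusted p of at most 0.05 was found by number for 8 of 21, against 24.6%.

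Imprints are kept through culture by factors that guard methylation at the marked sites, among them the zinc finger proteins ZFP57 and ZNF445 and their partner TRIM28. A list of 16 genes was made for such factors, and not every gene on it is known to have that role. Of these, 13 were tested. None was called by limma in KI against WT, between the treatments or by number, where 2.31%, 0.0929% and 1.06% of all genes were. An unadjusted p of at most 0.05 was found for 5, 1 and 3 of the 13 in these comparisons, against 28.6%, 12.8% and 24.6% of all genes. TRIM28 was at 119 to 125 FPKM in KI and 81.9 to 104 FPKM in WT, and ZNF445 at 6.63 to 10.3 FPKM in KI and 8.31 to 12.4 FPKM in WT. ZFP57 was under 1 FPKM in every library. ARID4A, a chromatin regulator, was the only one with an adjusted p under the threshold in KI against WT, at 3.48 to 3.63 FPKM in KI and 5.88 to 6.27 FPKM in WT.

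Across the 9 reporter libraries, the genes most like each member were found by the Pearson correlation of log2(FPKM + 1) over the 10284 genes with a mean of at least 1 FPKM, as a description. The libraries share lines and treatments and come from 2 tables, so the points are not independent. The nearest gene was CRIM1 for IGF2R (r = 0.986), FAM168A for PEG3 (r = 0.966), POT1 for PEG10 (r = 0.994) and CXXC5 for MEST (r = 0.948). It was GPAT4 for GRB10 (r = 0.952), RGMB for PLAGL1 (r = 0.974) and SLC13A4 for NNAT (r = 0.985). DLK1 was under the mean level required and was not compared.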

How the data were processed

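Oligo(dT) libraries were made from total RNA. The authors trimmed reads with Trim Galore, aligned them with HISAT2 2.0.4 to pig genome Ssc11.1 and computed FPKM with StringTie 1.3.3 and Ensembl release 97, and they deposited FPKM for every gene. The submitters' processing notes also name bcl2fastq 2.17.1.14, featureCounts 1.6.4 and DESeq2. Columns with the authors' own fold changes and p-values were not used. Groups came from the sample labels, and coordinates and spans from RefSeq Sscrofa11.1. The members and lists were chosen with earlier results of these data known.

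Differences were tested within each table on log2(FPKM + 1) with limma 3.58.1 (variance trend, R 4.3.3), among genes at 0.1 FPKM or more in at least 3 of 6 libraries, with Benjamini-Hochberg adjustment over all genes tested. Library number was tested in Activin A and SB431542 with a moderated F test, calling a range of the number means of at least 1. The same test in KI and WT was added after seeing the data. Because every same-numbered Activin A and SB431542 pair correlated above 0.1 (lowest 0.404), block values are given beside results they change. In data simulated with 200 genes changed by 2 on the log2 scale, 187 were recovered for KI against WT (13875 genes), 191 for Activin A against SB431542 (13848 genes), 169 for library number in the treated libraries (13852 genes) and 132 for library number in KI and WT (13871 genes). Unchanged genes called were 5, 4, 2 and 2. The changed genes had a mean log2(FPKM + 1) above 2, and the noise was independent and normal. These counts therefore do not give the share recovered among lower genes or for smaller differences, such as those of most members. Genes named were all members, other imprinted genes called in any of 3 tests, at most 4 called genes of each other list and the most alike genes; any further gene, including uncalled genes of the pathway, maintenance and marker lists, was chosen after its values were seen. Alternatives were other pseudocounts, filters, scalings and variance models, the replicate block and leaving out each library. Depth behind the FPKM values was not given as counts. No sequences are shown, since none were used here. Figures were drawn with matplotlib.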

Additional observations from a re-analysis of the deposited data

How the results depend on the processing

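For KI against WT, 324 genes were called, with 538 at a pseudocount of 0.1, 199 with no filter and 1012 by adjusted p alone. Leaving out 1 library gave 145 to 446 genes and 0 to 2 members. MEST, the 1 member called, was lost (0 members) with no filter (limma adjusted p = 0.0906), with no variance trend (0.0547) and with the replicate block (0.0953). With no filter the calls of IRS2 (0.0604) and NANOG (0.0536) were also lost. The NANOG call was lost in 5 of 6 fits with 1 library left out (limma adjusted p up to 0.0794), with differences of 1.708 to 2.415. The KI and WT numbers share only a number (correlations -0.0169 to 0.0961). The replicate block gave 232 genes and lost IGFBP5 (0.0564), KRT8 (0.0594) and PAX6 (0.0534) among the genes named here. PHLDA2 differed by 1.66 at a pseudocount of 1 and passed both thresholds at 0.1 (4.12). It passed the filter only through KI, and with WT near 0 the pseudocount sets its size, so no call is read. IGFBP5 differed by -1.63 at a pseudocount of 1 and -2.69 at 0.1. For Activin A against SB431542, 13 genes were called, with 5 under no filter or a filter of 1 FPKM, 7 with no variance trend, 99 with the replicate block (1 member, NNAT) and 0 to 5 with 1 library left out. The call of NANOG there was lost with no filter (limma adjusted p = 0.101), a filter of 1 FPKM (0.0567) and no variance trend (0.052). It was also lost in 5 of 6 fits with 1 library left out (limma adjusted p up to 0.208), with differences of 2.987 to 3.558. Between the treatments, the block changed the calls of NNAT, LIN28A, KRT8, TFAP2C, GATA2 and COL3A1 and of no other gene named here. For library number in the treated libraries, 149 genes were called, with 0 genes and 0 members under no filter (limma adjusted p = 0.0759 for both PEG3 and PHLDA2), and 2 to 33 genes and 0 members with 1 library left out. In KI and WT, 2 genes were called by number, with 1 at a pseudocount of 0.1, 0 under no filter or a filter of 1 FPKM and 0 to 1 with 1 library left out. The cause of these shifts was not tested, apart from the fewer libraries or other genes tested.

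Signs that changed belonged to uncalled differences. In KI against WT they were DLK1 at a pseudocount of 0.1 (-0.0126) and PEG10 with median-ratio scaling (-0.0158), and with 1 library left out PEG10 (-0.10 to 0.18), DLK1 (-0.20 to 0.16) and MKRN3 (-0.18 to 0.17). In Activin A against SB431542 they were COPG2 (-0.0053) and UBE3A (-0.0116) after rescaling to TPM, and with 1 library left out PEG3 (-0.34 to 0.37), PHLDA2 (-0.92 to 0.44), COPG2 (-0.085 to 0.14), SGCE (-0.25 to 0.079), GRB10 (-0.082 to 0.016), PLAGL1 (-0.44 to 0.10) and UBE3A (-0.042 to 0.087). The range of DLK1 by library number was 0.58, and 1.62 at a pseudocount of 0.1, uncalled in both. Relative depth ran from 0.574 to 1, lower in WT than in KI.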
